A study of Bos taurus with 5 samples.

Results

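The genes of the cytosolic ribosomal proteins were examined in cattle (Bos taurus) by RNA sequencing of 5 libraries. A gene entry was taken as a member when its name began with RPL or RPS followed by a digit, or with RPLP followed by a digit, or was RPSA, while the RPS6K kinases were left out. The rule found 85 of the 27607 entries in the table and used no measured value. By tissue label the libraries are brain, skin, lung, heart and limb, with 1 library per label and no replicates. The sources used here give no strain, sex, age, treatment or number of animals or cells for any library. Per the labels' protocols, cells were lysed and a chip built for single-cell work was used to pre-amplify their RNA. Because each label has 1 library, the values below describe these libraries, and none of the differences carries an error or a test.

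A cytosolic ribosome joins a small subunit, which reads the messenger RNA, to a large subunit, which forms the peptide bond. Each ribosomal protein is normally present once per ribosome, apart from the paired acidic proteins of the stalk, and its gene is active in nearly every cell. The messages of ribosomal proteins begin with a run of pyrimidines (the TOP motif), through which the growth-regulating kinase mTOR and the RNA-binding protein LARP1 control their translation together. Several members are also known outside the ribosome, such as RPL5 and RPL11, which bind the p53 regulator MDM2 together with 5S ribosomal RNA.

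The 85 entries carried 84 different names. Mammals have 80 ribosomal proteins, and 77 of them have genes named in the RPL and RPS style. Of these 77 names, 75 were found, 44 of the large subunit and 31 of the small one. The other two, RPL31 and RPL41, are not analysed here. The remaining 9 names were 8 paralogs (RPL3L, RPL7L1, RPL10L, RPL22L1, RPL26L1, RPL36AL, RPS4Y1 and RPS27L) and RPS19BP1. RPS19BP1 encodes a partner of RPS19 and of the deacetylase SIRT1, is not itself a ribosomal protein, and entered through its name. RPS29 was the only name with 2 entries. RPL7L1 is known mainly from ribosome assembly.

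Values were taken as FPKM, fragments scaled to the length of the transcript and to the size of the library. Each library summed to between 1072430 and 1172800 FPKM over all genes, and between 4868 and 6394 genes stood at 1 FPKM or more. FPKM carries no read counts, so the depth behind a single value is unknown. The tissue labels were checked against markers: 0 of 7 neuronal genes were above 0 in the brain library, 1 of 6 keratinocyte genes in skin, 0 of 5 alveolar genes in lung and 1 of 7 cardiomyocyte genes in the heart library. In the limb library 1 of 6 skeletal muscle and 0 of 4 cartilage genes were above 0. The defining markers were thus mostly listed at 0, and several of those detected were higher under another label. SFTPC was above 0 only in the limb library (34.2 FPKM) and KRT5 only in the lung library (51 FPKM). ACTC1 was at 231 FPKM in limb and 57.7 FPKM in brain, against 5.21 FPKM in the heart library. KRT10 was higher in brain (27.8 FPKM) and heart (27.2 FPKM) than in the skin library (20.8 FPKM). ACTA1, a skeletal muscle gene, was highest in the limb library (37.6 FPKM). A 0 in this table can be a missed transcript, since genes that cells generally use are also listed at 0, such as POLR1A in 4 libraries and POLR1B in 3. Below, a library is called by its label alone ("the lung library"), with no statement on its cells.

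The members were among the most abundant and most widely detected genes of these libraries. In all 5 libraries 82 of the 85 entries were above 0, whereas 2607 of the 27607 genes (9.44%) were. RPL3L and RPL10L, paralogs known in other mammals from striated muscle and testis, were listed at 0 in every library. RPL26L1 was listed at 0 in the limb library only. The 83 entries with a mean of at least 1 FPKM over the libraries had means between 72.6 and 6376 FPKM, with a median of 1529 FPKM. Of the 218 genes in the whole table with a mean of at least 1000 FPKM, 58 (26.6%) were members.

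Levels differed widely among the members, although their proteins are needed in equal numbers. FPKM is scaled to transcript length, so these levels are compared per length. The 8 most abundant entries held 23.8% of the summed mean level of the members. RPS25, a protein of the small-subunit head that some viral internal ribosome entry sites require, was the highest and ranked 17th among all genes. It stood at 6939.9 FPKM in brain, 6039 FPKM in skin, 6555 FPKM in lung, 6029 FPKM in heart and 6317 FPKM in the limb library. These 5 values differed by a factor of 1.15, the smallest ratio among the 83 entries. RPS27A, which is made as a fusion of ubiquitin with a small-subunit protein, followed with a mean of 4736 FPKM. RPS18 had a mean of 4512 FPKM, RPL27 of 4231 FPKM and the zinc-binding RPS29 of 3806 FPKM. RPS27, RPS13 and RPL37 completed the first 8, at means of 3732, 3559 and 3461 FPKM.

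At the low end, the canonical genes were RPL6 at a mean of 197 FPKM, RPL22 at 208 FPKM, RPL15 at 455 FPKM, RPL37A at 472 FPKM, RPS9 at 481 FPKM, RPL27A at 494 FPKM, RPL11 at 536 FPKM and RPS4X at 548 FPKM. RPL6 stood at 118 FPKM in brain, 206 FPKM in skin, 288 FPKM in lung, 172 FPKM in heart and 199 FPKM in the limb library. All 5 values of RPL6 were thus below each of the 5 values of RPS25. The order of the members was much the same from library to library. Over the 83 entries, Spearman's rho of log2(FPKM + 1) between libraries lay between 0.87 and 0.93 and Pearson's r between 0.78 and 0.93. These are correlations across genes, which are not independent and share transcript length and library.

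**Figure D1:**
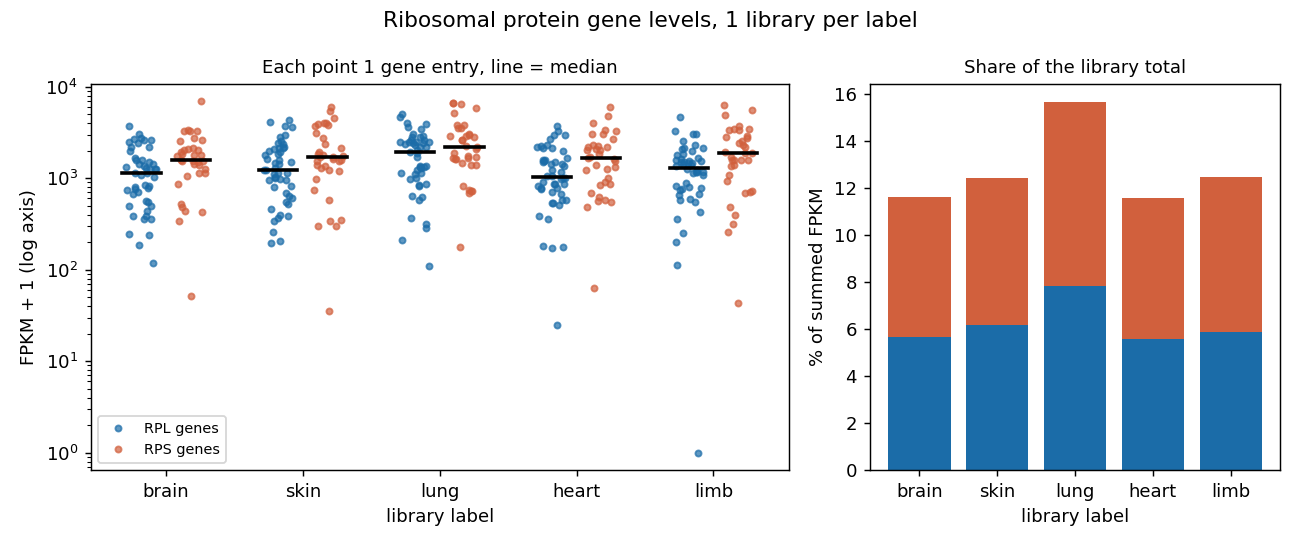
Ribosomal protein gene levels in the 5 libraries. The left panel shows each of the 83 entries with a mean of at least 1 FPKM as a point, in FPKM + 1 on a log axis, with a line at the median of the RPL-named (blue) and RPS-named (orange) entries. The right panel stacks the summed FPKM of the same names as a percentage of each library's total, and the lung library is the highest at 15.7%.

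The lung library stood apart in the level of ribosomal protein genes. The members took 15.7% of its summed FPKM, against 11.6% in brain, 12.4% in skin, 11.6% in heart and 12.5% in the limb library. Their sum was 183622 FPKM there, against 124698, 144786, 127748 and 140619 FPKM in the brain, skin, heart and limb libraries. Of the 83 entries, 56 had their highest value in the lung library, and 2 (RPS12 and RPL37A) had their lowest value there. Among all 8694 genes that averaged 1 FPKM or more, 24.1% had their highest value in the lung library. Among the 160 other genes averaging 1000 FPKM or more the share was 18.1%. The other members peaked in the skin library (12, against 19.8% of all genes and 36.2% of the 160 abundant ones), the limb library (9, against 18% and 19.4%), the brain library (5, against 19.5% and 11.2%) and, for 1 gene, RPL24, the heart library (18.6% and 15%).

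The same comparison was made gene by gene, as log2(FPKM + 1) in 1 library minus its mean in the other 4. In the lung library the median difference over the 83 entries was 0.54, and 76 of 83 were above 0. The median over all genes tested was -0.16, and that over the 160 other genes at 1000 FPKM or more was -0.028. Over the 1358 genes averaging 100 FPKM or more, which include 82 of the entries, it was 0.21. Genes at that level were thus also higher in the lung library, though by less than the members. The interquartile range of the difference over the entries ran from 0.25 to 0.78. The median was 0.61 over the RPL-named and 0.50 over the RPS-named entries, so the transcripts of both name groups were higher. Rescaling the libraries by the median ratio of the genes above 0 in all 5 moved the median gene of the lung library by -0.13 on the log2 scale and gave a member median of 0.46. The higher level of most members was moderate, with 9 entries at least 2-fold higher (27.8% of all genes tested were called so) and 0 at least 2-fold lower (19.2% of all genes tested). Of the 160 other genes at 1000 FPKM or more, 4.38% were at least 2-fold higher there and 12.5% at least 2-fold lower. Under median-ratio scaling 5 members were called in place of 9.

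Among the small-subunit genes called higher was RPS15, which lies near the decoding site. RPS15 was at 5187 FPKM in the lung library, against 2030.4, 3914, 2009.9 and 2776 FPKM in the brain, skin, heart and limb libraries. The skin library was also high for RPS15. The abundant RPS29 entry was at 6497 FPKM, against 2569, 3999, 3046 and 2917 FPKM in the brain, skin, heart and limb libraries.

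Among large-subunit genes RPL17, whose protein lines the tunnel through which the new peptide leaves, was at 2409 FPKM in the lung library. RPL17 stood at 808 FPKM in brain, 1429.9 FPKM in skin, 973 FPKM in heart and 1242 FPKM in the limb library. RPL36A had 2178 FPKM in the lung library, against 357 FPKM in brain, 1474 FPKM in skin, 869 FPKM in heart and 1143 FPKM in the limb library. Both genes were lowest in brain and highest in the lung library. RPL26L1 was called higher in the lung library too, but its 107.6 FPKM there lay below the 245 and 258 FPKM of the brain and skin libraries, and the call rests on the 0 of the limb library. Also called higher were RPS4Y1 and the lower of the 2 RPS29 entries, described below.

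Some members did not share the higher level in the lung library. RPS12, a small-subunit protein, was at 1409 FPKM there, against 2723 FPKM in brain, 1628 FPKM in skin, 2290.5 FPKM in heart and 3691 FPKM in the limb library. RPL12, which sits at the base of the stalk where translation factors dock, was at 573 FPKM, against 1029 FPKM in brain, 399 FPKM in skin, 1048 FPKM in heart and 1391 FPKM in the limb library. Both were low in the skin and lung libraries and highest in the limb one. RPL37A was the lowest of its 5 values in the lung library, at 370 FPKM, against 438, 462, 504 and 583 FPKM in the brain, skin, heart and limb libraries. RPL7L1, RPS23, RPS28 and RPL36 were the other 4 entries below the mean of the other libraries, by at most 0.13 on the log2 scale.

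Ribosomal proteins named in other ways were read beside the members. FAU, which encodes a small-subunit protein fused to a ubiquitin-like one, stood at 6348 FPKM in the lung library, against 4303, 3576, 2398 and 2919.5 FPKM in the brain, skin, heart and limb libraries. RACK1, a scaffold on the small subunit, was at 1546 FPKM, against 1342, 1035, 915 and 990 FPKM in the same order. Both were highest in the lung library, and neither reached 2-fold above the other 4. Cell cycle genes differed between the libraries as well: the 7 markers of dividing cells summed to 1018 FPKM in lung and 850 FPKM in the skin library, against 1.13, 34.8 and 76.1 FPKM in the brain, heart and limb libraries. Of the 7, 6 were above 0 in both of these and 1 in each of the others, with MKI67 at 3.44 FPKM or less and CDK1 listed at 0 in all 5. The 5 fibroblast markers summed to 76.6 FPKM in the lung library, against 509, 104, 786 and 321 FPKM in the brain, skin, heart and limb libraries, with DCN and LUM listed at 0 throughout. Of 5 blood and immune markers only a hemoglobin alpha gene was above 0, at 59.5 FPKM in the lung library, and PTPRC, CSF1R, CD68 and HBB were listed at 0. The part of these cell types in the result was not tested. The number of cells of a kind and the RNA per cell cannot be told apart in such libraries.

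**Figure D2:**
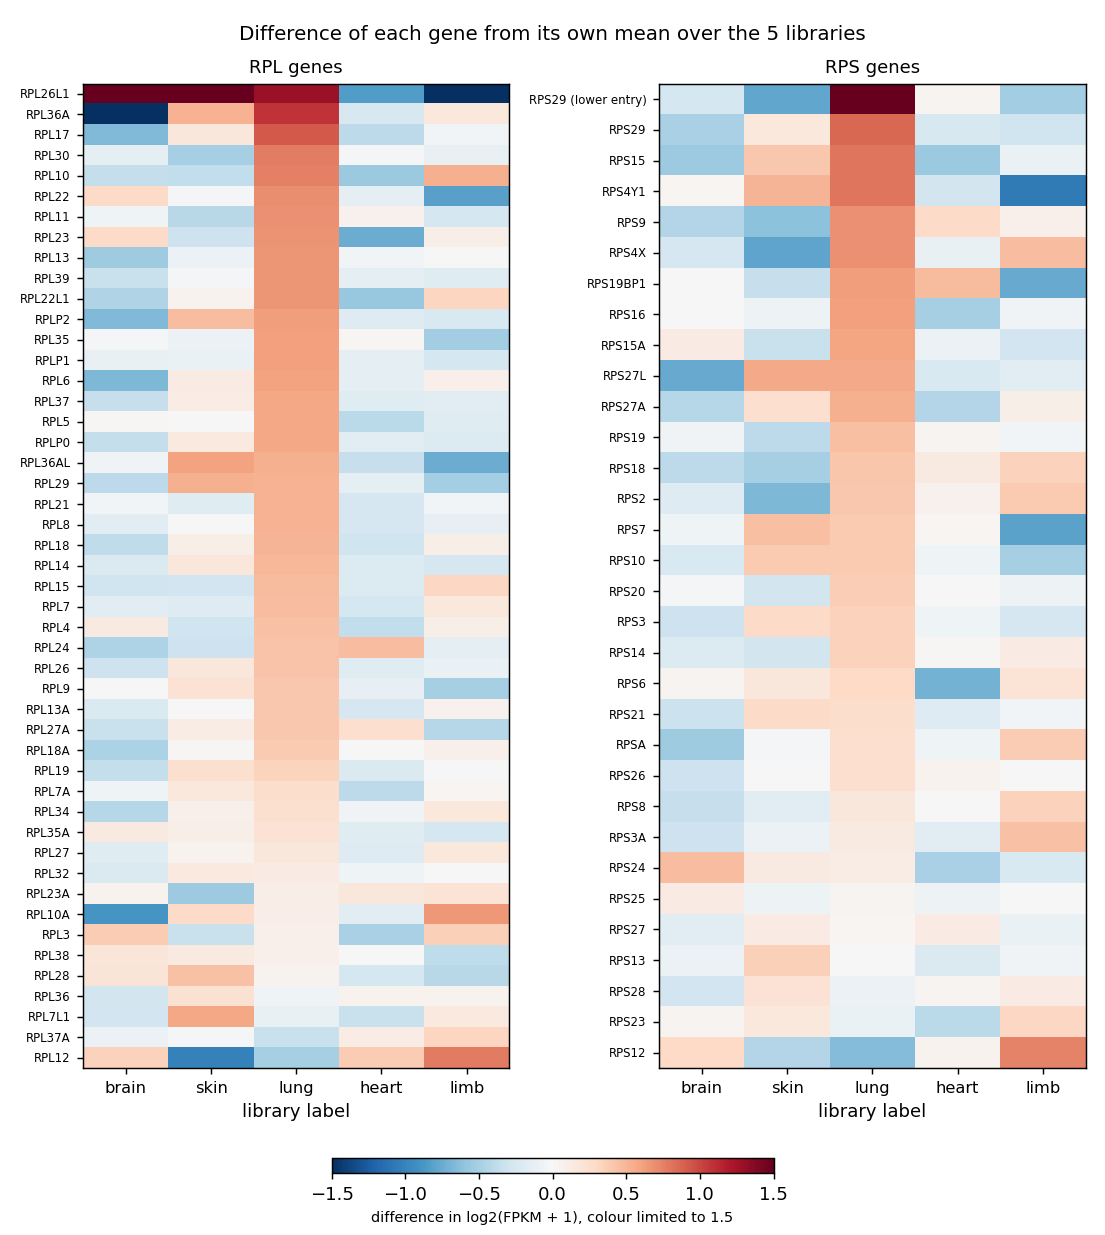
Difference of 80 of the 83 entries from their own mean over the 5 libraries, in log2(FPKM + 1), with RPL-named genes on the left and RPS-named genes on the right, ordered by the lung library. Red is above and blue below the gene's mean, and colours stop at 1.5. The lung column is red for most genes, while RPS12 and RPL12 at the bottom are blue there and red in the limb column.

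In the brain library 61 of 83 entries lay below the mean of the other 4, with a median difference of -0.26, against 0.15 over all genes tested and -0.13 over the 160 other genes at 1000 FPKM or more. At least 2-fold lower were 2 entries (14.2% of all genes tested), RPL36A and RPL10A, and RPL26L1 was at least 2-fold higher (28.1% of all genes tested). Of the 160 other abundant genes 5% were higher and 4.38% lower by that much. RPL10A forms the mobile stalk beside the exit site. It stood at 497 FPKM in the brain library, against 1125 FPKM in skin, 987 FPKM in lung, 821 FPKM in heart and 1448 FPKM in the limb library. The brain value of RPL10A was below all others. RPS24 and RPL3 were highest in the brain library, RPS24 at 1766 FPKM against 909 to 1399.7 FPKM elsewhere and RPL3 at 1588 FPKM against 867 to 1559 FPKM. Without the lung library in the comparison the brain median was -0.15, and without the heart library 5 members were called in place of 3. RPL38 and RPS25 also had their highest value there, and 28 entries their lowest.

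In the heart library the median difference was -0.19 and 61 of 83 entries lay below the other 4. The median over all genes tested was -0.011, and that over the 160 other abundant genes was -0.088. RPL26L1 was the only entry at least 2-fold lower (16.3% of all genes tested), and 0 were at least 2-fold higher (26.1% of all genes tested). Among the 160 other abundant genes 6.25% were called in each direction. RPS6, the small-subunit protein phosphorylated by S6 kinases, was at 838 FPKM, against 1402 FPKM in brain, 1539 FPKM in skin, 1677 FPKM in lung and 1577 FPKM in the limb library. RPL23 was at 705 FPKM there, against 952 to 1875 FPKM in the other libraries. The heart library was thus low for RPS6, whose other 4 values lay close together. Rescaled by the median ratio, the member median of the heart library was -0.019, and without the lung library in the comparison it was -0.028, so its low level depended on the scaling and on the lung library. Without the brain or the lung library, or under median-ratio scaling, 0 members were called. RPL24, at 1355 FPKM, was the one gene with its highest value there, close to the 1323 FPKM of the lung library.

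In the skin library the median difference was 0.015, with 44 of 83 entries above the other 4, while the median of all genes tested was -0.73 and that of the 160 other abundant genes was 0.21. RPL12 was at least 2-fold lower (23% of all genes tested) and RPL26L1 at least 2-fold higher (22.4%). Of the 160 other abundant genes 5% were lower and 8.75% higher. RPS4X, at 297 FPKM against 431 to 825 FPKM elsewhere, was next lowest. RPL36AL, at 4120.2 FPKM against 1614 to 3900.4 FPKM elsewhere, and RPL7L1, at 337 FPKM against 178 to 250.1 FPKM elsewhere, followed RPL26L1 at the high end. The sign of the skin median turned without the brain library in the comparison, to -0.042, and without the heart library, to -0.0017. It also turned under median-ratio scaling (-0.054) and under scaling to the total without the members (-0.054). Scaling to an equal total, chosen after seeing the data, gave -0.046. Without the lung library the median was 0.18. The 2 members called became 4 without the brain or the heart library, and 4 under median-ratio scaling.

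In the limb library the median difference was -0.046, against -0.67 over all genes tested and -0.00079 over the 160 other abundant genes. At least 2-fold lower were 4 entries (22.5% of all genes tested): RPL26L1, RPS4Y1, RPL22 and RPS7. None (0) was at least 2-fold higher (22.2% of all genes tested). Of the 160 other abundant genes 1.25% were lower and 5% higher. RPS7, an early-binding small-subunit protein, was at 314 FPKM in the limb library, against 526, 749, 723 and 558 FPKM in the brain, skin, lung and heart libraries. RPL12, RPS12 and RPL10A were the 3 entries furthest above the other libraries. RPL12 and RPS12, above the mean of the other 4 in the limb library, were below it in the lung library. Without the lung library among the other 4 the limb median was 0.10, above 0, and 2 members were called, whereas without the brain or the heart library 7 were called. Under median-ratio scaling 2 were called.

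Set against other genes, the members varied little. The ratio of the highest to the lowest library, after adding 1 FPKM, had a median of 1.88 over the 83 entries and was under 2 for 51 of them (61.4%). Over all 8694 genes tested the median was 17.3, and 3.50% were under 2. The contrast was smaller at a like level, where the ratio of the 160 other genes at 1000 FPKM or more had a median of 2.09, with 45% under 2. The 58 members at that level had a median of 1.83, with 72.4% under 2. Besides RPS25, the smallest ratios belonged to RPS27 (1.23), RPL27 (1.28), RPL32 (1.29), RPL35A (1.40), RPL36 (1.41), RPS28 (1.42) and RPS26 (1.48). The largest among members with a mean of at least 100 FPKM included those of RPL26L1, RPL36A (6.08), RPS4Y1 (3.65), RPL12 (3.48), RPL17 (2.98), RPL10A (2.91) and RPL22 (2.83). When the median of the members was taken out of each library, RPL13A, RPL8 and RPL26, named after their values were seen, followed it most closely, with an SD over the 5 libraries of 0.074, 0.080 and 0.10 on the log2 scale. For 29 of the 83 entries that SD was under 0.25, and for 8 it was over 0.5.

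**Figure D3:**
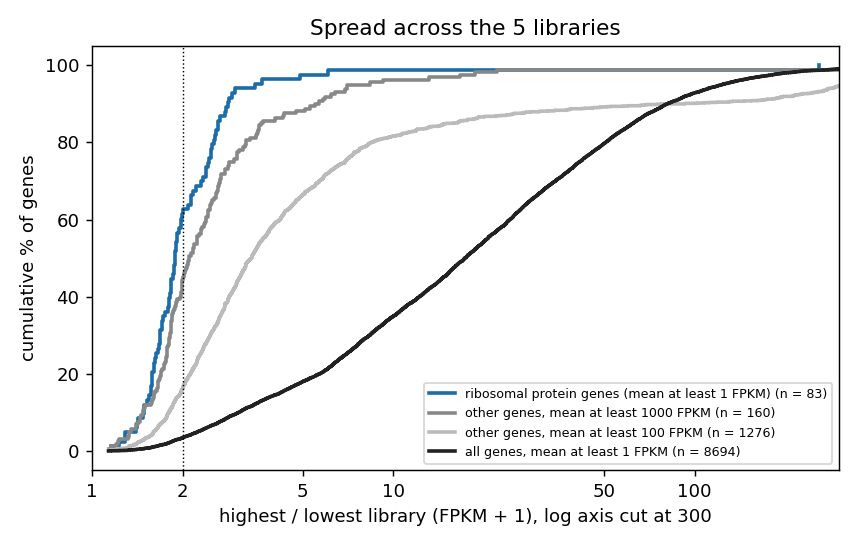
Cumulative percentage of genes by the ratio of the highest to the lowest of the 5 libraries, after adding 1 FPKM, on a log axis that stops short of the highest ratios. Of the ribosomal protein genes (blue) 61.4% lie under 2 (dotted line), against 45% of the other genes averaging 1000 FPKM or more (dark grey) and 3.50% of all genes (black).

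At 1.5-fold in either direction 12, 18, 40, 10 and 15 of the 83 entries were called in the brain, skin, lung, heart and limb libraries, against 50.7%, 53.2%, 55.2%, 51.6% and 52.2% of all genes tested. At 3-fold 2, 1, 2, 0 and 1 were called in the same order, against 31.9%, 37%, 37.1%, 31.8% and 35.8%.

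The libraries were also compared in 10 pairs. At least 2-fold apart in either direction were 14 of 83 entries between the lung and brain libraries (44% of all genes tested) and 13 between the lung and heart ones (46.8%). The lung and limb libraries differed for 13 (45.2%) and the lung and skin libraries for 10 (43.8%). Pairs without the lung library had fewer: 9 for skin against limb (42.7%), 5 each for skin against brain (43.3%) and limb against brain (40.6%), 3 each for heart against brain (38.5%) and limb against heart (40.8%), and 2 for skin against heart (44.1%). Among the 160 other abundant genes the shares were 24.4% for lung against brain, 26.9% for lung against heart, 21.9% for lung against limb and 13.1% for lung against skin. They were 21.2% for skin against limb, 21.9% for skin against brain, 10.6% for limb against brain, 10% for heart against brain, 11.9% for limb against heart and 20.6% for skin against heart. The pairs share libraries and are not independent of each other.

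The summed transcript levels of the RPL-named and RPS-named entries were close to even, although 50 entries were RPL-named and 35 RPS-named. A ratio of 1 between these sums is thus not an equal level per gene. The summed FPKM of the RPL-named entries, divided by that of the RPS-named ones, was 0.96 in brain, 0.99 in skin, 0.9997 in lung, 0.94 in heart and 0.89 in the limb library. Without RPS25, left out after seeing the data, the ratio was 1.07 in brain, 1.075 in skin, 1.08 in lung, 1.03 in heart and 0.98 in the limb library, so it passed to the other side of 1 in 4 of the 5.

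The stalk of the large subunit carries RPLP0 with pairs of the acidic proteins RPLP1 and RPLP2, which recruit elongation factors. RPLP0 was at 2621 FPKM in the lung library, against 1372, 1954, 1579 and 1521 FPKM in the brain, skin, heart and limb libraries. RPLP1 was at 3629 FPKM, against 2202, 2212, 2164 and 1984 FPKM in the same order. RPLP2 was at 1366 FPKM in lung and 1214 FPKM in the skin library, against 558, 771 and 752 FPKM in the brain, heart and limb libraries. RPLP1 was above RPLP2 in all 5 libraries, and RPLP2 was high in a pair of libraries where RPLP1 was high in 1 only. The 5S partners were read with them: RPL5 was at 2428 FPKM in the lung library, against 1645, 1628, 1233 and 1435 FPKM, and RPL11 at 828 FPKM, against 494, 387, 541 and 429 FPKM, in the brain, skin, heart and limb libraries. MDM2, to which both bind and which was named after its values were seen, was at 60.8 FPKM in the lung library, against 42.4, 45.2, 0 and 24.4 FPKM in that order.

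Paralogs can stand in for a canonical protein in the ribosome, so 8 pairs present in the table were compared. Near-identical copies can share reads, and the sources used here do not say how the authors' estimation divided them, so each value of a pair is uncertain. RPL22L1 was above RPL22 in all 5 libraries. In mouse the RPL22 protein is known to repress its paralog, and whether it does so here was not tested. RPL22L1 stood at 387 FPKM in brain, 549.5 FPKM in skin, 838 FPKM in lung, 358 FPKM in heart and 662 FPKM in the limb library. RPL22 was at 240.2 FPKM, 194 FPKM, 318 FPKM, 177 FPKM and 112 FPKM in the same order. The ratio of paralog to canonical gene was thus 1.61, 2.83, 2.63, 2.02 and 5.93. It was largest in the limb library, where RPL22, its denominator, was lowest. Both genes were highest in the lung library.

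RPL36AL was likewise above RPL36A in all 5 libraries. RPL36AL was at 2606 FPKM in brain, 4120.2 FPKM in skin, 3900.4 FPKM in lung, 2125 FPKM in heart and 1614 FPKM in the limb library. The ratio to RPL36A was 7.29, 2.80, 1.79, 2.44 and 1.41 in that order, with the brain library set apart by its low RPL36A. RPS4Y1 was above RPS4X in 4 of the 5 libraries, with ratios of 1.98 in brain, 3.99 in skin, 1.77 in lung and 1.44 in the heart library. In the limb library the order turned, with RPS4Y1 at 399 FPKM and RPS4X at 710 FPKM, a ratio of 0.56. The summed level of RPS4Y1 and RPS4X differed 2.06-fold between the highest and the lowest library, less than the 3.65-fold and 2.77-fold of each gene. The sums of the RPL22 (2.16-fold), RPL36A (2.20-fold), RPL26 (1.58-fold) and RPL7 (1.59-fold) pairs also differed less than each gene. The sum of RPS27L and RPS27, at 1.63-fold, differed more than the 1.23-fold of RPS27. A sum cannot differ more than the more variable gene of its pair, so only the comparison with the less variable gene was open. Whether the genes of a pair offset each other was not tested.

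RPS27L, which is induced by p53 in human cells, was close to RPS27 in the skin and lung libraries, with ratios of 0.94 and 1.005. The ratio was 0.46 in brain, 0.54 in heart and 0.66 in the limb library. RPS27 itself differed by a factor of 1.23, whereas RPS27L differed by a factor of 2.50, at 1523, 3798, 3812, 2184 and 2301 FPKM in the brain, skin, lung, heart and limb libraries. RPL26L1 stayed far below RPL26 throughout. RPL26L1 was at 245 FPKM in brain, 258 FPKM in skin, 107.6 FPKM in lung, 23.9 FPKM in heart and 0 FPKM in the limb library, while RPL26 was at 1305 to 2169 FPKM. RPL7L1 stood at 0.11 to 0.27 of RPL7, and RPL3L and RPL10L were at 0 beside RPL3 and RPL10. Of the 2 RPS29 entries, the lower (ENSBTAG00000025666) was at 34.7 to 174 FPKM and also peaked in the lung library, 37.3 to 115 times below the higher entry (ENSBTAG00000052337).

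**Figure D4:**
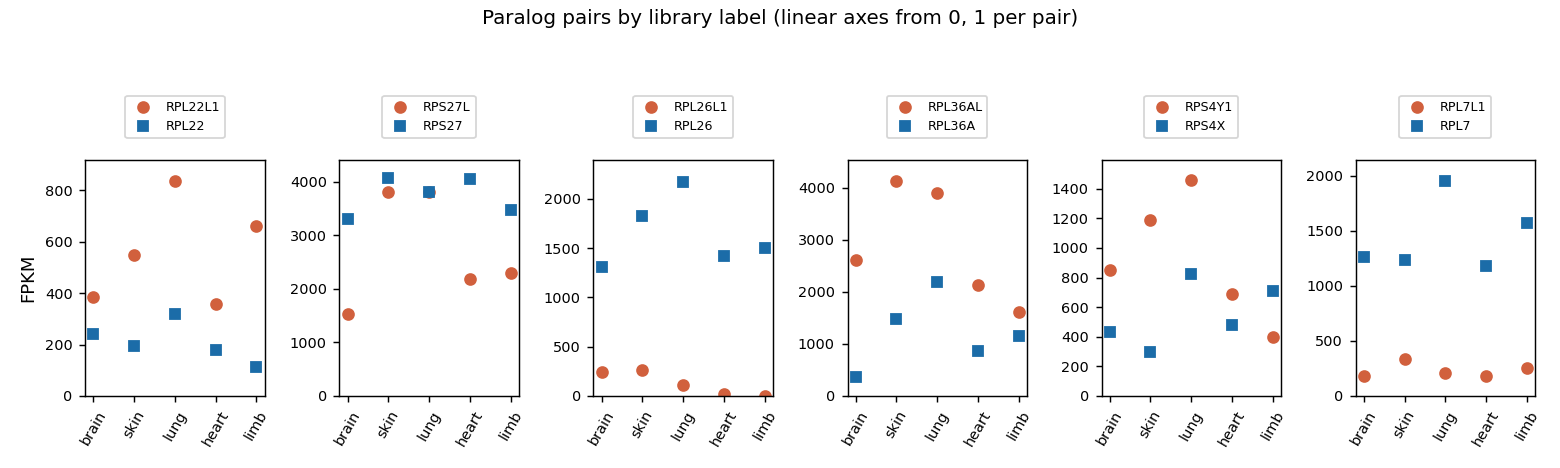
FPKM of 6 paralogs (orange circles) and their canonical genes (blue squares) in the 5 libraries, on linear axes from 0 with 1 axis per pair. RPL22L1 and RPL36AL lie above their canonical genes in every library, RPS4Y1 in all but the limb one, and RPL26L1 and RPL7L1 below in every library.

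Genes that build the ribosome were counted from a list of 55 assembly factors, of which 53 were tested. In the lung library 28 of the 53 were at least 2-fold above the other 4 and 4 below, with a median difference of 1.15. These counts are 52.8% and 7.55% of the list, against 27.8% and 19.2% of all genes tested. The brain library had 27 higher (50.9%, against 28.1% of all genes tested) and 5 lower (9.43%, against 14.2%), with a median of 1.12. In the skin library 9 were higher and 20 lower (17.0% and 37.7%, against 22.4% and 23% of all genes tested). In the heart library 13 and 13 were (24.5% each, against 26.1% and 16.3%), and in the limb library 7 and 20 (13.2% and 37.7%, against 22.2% and 22.5%). The medians of all genes tested were 0.15 in brain and -0.16 in the lung library. NPM1 (nucleophosmin, a nucleolar chaperone) was at 1394 FPKM in lung and 860.2 FPKM in the brain library, against 539, 298 and 551 FPKM in the skin, heart and limb libraries. NHP2, part of the RNA-modifying box H/ACA particles, was at 1029 FPKM in lung and 1138 FPKM in the brain library, against 340.1, 147 and 524 FPKM. EIF6, which keeps the large subunit from joining too early, did not follow this order: it was at 319 FPKM in lung and 963 FPKM in the brain library, against 461, 272 and 599 FPKM. Of the 53, 51, 42, 50, 46 and 40 were above 0 in the brain, skin, lung, heart and limb libraries. Some of the genes called lower, such as NOLC1, MRTO4 and TSR1 in skin and limb, were listed at 0 there. Since a 0 can be a missed transcript, the counts cannot separate lower level from missed detection. The largest ratios in the list were those of NOB1, NOLC1 and MRTO4, each listed at 0 in at least 1 library.

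Other messages with a TOP motif were read from a list of 20 names, of which 19 were tested. In the lung library 5 of the 19 were at least 2-fold above the other 4 and 0 below, with a median difference of 0.21, against 0.54 for the ribosomal protein genes. The 5 are 26.3% of the list, close to the 27.8% of all genes tested called higher there. In the brain, skin, heart and limb libraries 2, 2, 0 and 1 were higher (28.1%, 22.4%, 26.1% and 22.2% of all genes tested) and 1, 2, 2 and 4 lower (14.2%, 23%, 16.3% and 22.5%), and the medians were 0.039, -0.030, -0.13 and -0.36. The largest ratios in the list were those of EIF4B, EEF2 and EIF2S3, each highest in the lung library, at 55.0, 61.0 and 136.7 FPKM. The most abundant of them were not high in the lung library. EEF1A1, the elongation factor that brings transfer RNA to the ribosome, stood at 1012 FPKM there, against 1259, 1087 and 1450.0 FPKM in the brain, skin and heart libraries and 2283 FPKM in the limb library. NACA, which shields new peptides at the tunnel exit, was at 1602 FPKM, against 2021, 1935, 1284 and 1753 FPKM in the brain, skin, heart and limb libraries. VIM (vimentin) was at 1011 FPKM, against 1678, 2251, 2230.1 and 1399 FPKM. Both EEF1A1 and VIM were lowest in the lung library, unlike most ribosomal protein genes.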

How the data were processed

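Gene expression was read from 1 table of 27607 genes by 5 libraries, 1 library for each tissue label. Per the submitters' processing notes, bcl2fastq, STAR and RSEM were used with the ARS-UCD1.2 build, though these sources give neither versions nor annotation. The deposited values were taken as FPKM by elimination: neither table nor labels name the unit, 98.7% to 99.1% of the values above 0 are not whole, and library totals exceed that of TPM. FPKM scaling makes each value a share of its library, so a high share of one gene group lowers the others.

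Python 3.11.15 with pandas 2.3.3 was used. A difference is log2(FPKM + 1) in 1 library minus its mean in the other 4, over genes averaging 1 FPKM or more. A gene was called at 2-fold or more where the higher side reached 10 FPKM. Adding 1 understates ratios of low genes, and the rules were tested on simulated data. With no counts and no replicates, no test, error or interval was possible. All 84 member names matched a protein-coding gene of RefSeq on a later assembly, whose coordinates were not used. Named genes were the 8 highest and 8 lowest canonical means, the 8 largest and smallest ratios, the 3 extremes per library in each direction, paralogs, stalk and 5S partners, RPS6, FAU and RACK1, and the 3 highest means and 3 largest ratios of the lists for assembly, TOP messages and TOP regulators. A few genes that these rules name are not reported here. Cell type markers were checked by whether they were above 0. The members, lists and rules were chosen with earlier results of these data known.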

Additional observations from a re-analysis of the deposited data

How the results depend on the processing

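No paired analysis was possible because each label has 1 library. The member median of the lung library stayed between 0.46 and 0.57 on the log2 scale under every alternative run. Leaving 1 library out of the reference gave -0.31 to -0.15 for brain, -0.042 to 0.18 for skin, 0.51 to 0.57 for lung, -0.29 to -0.028 for heart and -0.11 to 0.10 for the limb library, with the lung library the one whose absence moved the other 4 medians most. Rescaling by the median ratio gave -0.019 for the heart library. Members past the threshold numbered 12, 18, 40, 10 and 15 in the brain, skin, lung, heart and limb libraries at 1.5-fold, and at 3-fold 1 in skin, 2 in lung, 0 in heart and 1 in the limb library. Leaving 1 library out of the reference gave 3 to 5, 3 to 4, 7 to 9, 0 to 1 and 2 to 7 members in the same order of libraries. Under median-ratio scaling the counts were 4 in skin, 5 in lung, 0 in heart and 2 in the limb library.

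With 1 entry per canonical name they were 1 in skin, 0 in heart and 2 in the limb library, and for pairs 3 for limb against brain, 1 for skin against heart, 8 for lung against limb and 1 for limb against heart. Scaling to the total without the members, or to an equal total (chosen after seeing the data), gave 4 in the skin library. A pseudocount of 0.1 gave 0 in heart and a pseudocount of 10 gave 2 in the limb library. Skin against heart had 5 under median-ratio scaling. Leaving out abundant members was chosen after seeing the data. Without the 4 most abundant members the shares were 10.01%, 10.79%, 13.64%, 9.96% and 10.58% in the brain, skin, lung, heart and limb libraries. Without RPS25 the subunit ratio was 1.073 in brain and 1.029 in the heart library. Counts of 5 or fewer rest on single genes, and the reads behind a value are unknown.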

Other observations

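A list of 17 genes, drawn up for regulators of TOP messages, also held MYC, MAX and LARP7, so its counts are not of such regulators alone. At least 2-fold higher were 5, 5, 5, 4 and 3 of the 17 in the brain, skin, lung, heart and limb libraries. At least 2-fold lower were 1, 3, 2, 1 and 5 in the same order. Of all genes tested, 28.1%, 22.4%, 27.8%, 26.1% and 22.2% were called higher and 14.2%, 23%, 19.2%, 16.3% and 22.5% lower in these libraries. The 5 higher genes are 29.4% of their list, so the counts in brain and lung are near that background. EIF4EBP1, a repressor of cap-dependent translation, was highest in the limb library at 883 FPKM, against 741, 374, 338 and 474 FPKM in the brain, skin, lung and heart libraries. EIF4E, the cap-binding protein it holds, was lowest in the limb library at 269 FPKM, against 439, 396, 535 and 568 FPKM. RHEB, the activator of mTOR, stood at 236 to 441 FPKM in the 5 libraries. MYC, a known activator of ribosomal protein genes, was listed at 0 in the lung library and at 17.6, 26.5, 43.5 and 62.9 FPKM in the brain, skin, heart and limb libraries. Its partner MAX was also listed at 0 there, against 34.1 to 106.5 FPKM elsewhere. MTOR, RPTOR and POLR1B, which cells generally use, were listed at 0 in the lung library too, so a 0 does not show that a transcript was absent. RPS6KB1, the kinase of RPS6, stood at 32.5 FPKM in the lung library, against 18.9, 0, 50.6 and 3.73 FPKM in the brain, skin, heart and limb libraries.

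Subunits and partners of RNA polymerase I, which makes ribosomal RNA, were at least 2-fold higher for 6 of 13 tested genes in brain, 6 in skin, 5 in lung, 1 in heart and 3 in the limb library, and lower for 1, 2, 0, 4 and 4 in the same order. The higher counts are 46.2%, 46.2%, 38.5%, 7.69% and 23.1% of the list, against 28.1%, 22.4%, 27.8%, 26.1% and 22.2% of all genes tested. The share in the limb library is thus near that of all genes tested. The lower counts are 7.69%, 15.4%, 0%, 30.8% and 30.8% of the list, against 14.2%, 23%, 19.2%, 16.3% and 22.5% of all genes tested. POLR1D and POLR1H were chosen after their values were seen. POLR1D was at 318 FPKM in the lung library, against 170, 238, 32.7 and 2.13 FPKM in the brain, skin, heart and limb libraries. POLR1H ran the other way, at 420 FPKM in limb and 264 FPKM in the heart library against 141, 0 and 82.5 FPKM in the brain, skin and lung libraries. Genes of ribosome surveillance, from a list of 17 names of which 14 were tested, had 5, 5, 5, 2 and 2 higher and 1, 3, 3, 2 and 3 lower in the brain, skin, lung, heart and limb libraries. The higher counts are 35.7% of the list in the first 3 and 14.3% in the other 2. The lower counts are 7.14%, 21.4%, 21.4%, 14.3% and 21.4% of the list. The shares of all genes tested are those given for the RNA polymerase I list, and the lower counts of 3 are near them.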
